A study of Mus musculus with 6 samples.

Results

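The RNA that marrow stromal cells of neonatal mice hold before any antibody enrichment was described from both Input libraries of a study of m6A, a methyl mark on RNA, by immunoprecipitation. The cells were mesenchymal stromal cells of bone marrow, taken at P2 from C57BL/6 mice of genotype Cxcl12-dsred/+. They were sorted as positive for the DsRed reporter and negative for CD45, Ter119 and CD31, surface proteins of blood cells, red cells and endothelium. RNA with poly(A) tails was captured on oligo(dT) beads, and 6% of it was kept aside as Input. The other 4 of the 6 libraries are pull-downs and were not used here. Input replicate 1 held 7125578 counts and Input replicate 2 held 9493391. The labels do not say whether the replicates came from separate animals, so the spread between them may be technical. Both libraries belong to 1 group and carry 1 genotype, so no contrast between groups exists and no test was made.

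Members were the genes with 100 or more counts in both Input libraries, which was 6429 of the 27179 genes in the table, or 23.7%. That minimum equals 14.0 CPM (counts scaled to a library total of 1000000) in replicate 1 and 10.5 CPM in replicate 2. Counting error alone puts a count of 100 between 81.4 and 121.6 (exact Poisson interval, 95%). The members held 97.6% of the counts of replicate 1 and 93.8% of those of replicate 2. Another 5084 genes had a count in at least 1 library without reaching membership, and 15666 had none. A count of 0 allows up to 3 counts, which is 0.421 CPM in replicate 1 and 0.316 CPM in replicate 2, for counting error only. Of the members, 6119 were annotated as protein-coding, 111 as long noncoding RNAs and 123 as pseudogenes. The median member had a mean of 75.7 CPM, the 10th percentile was 24.0 CPM and the 90th was 316 CPM, while the median over all genes of the table was 0 CPM.

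Stromal cells that make CXCL12 line the sinusoids of marrow and hold blood stem cells near them: the chemokine CXCL12 retains the stem cells, and the KIT ligand made by the same stroma keeps them alive. In adult marrow such cells carry the leptin receptor, and they can give rise to bone-forming osteoblasts and to marrow adipocytes. Around birth the marrow cavity is still forming, beside growing bone, cartilage and muscle.

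All 5 genes used as markers of this stroma were members. Cxcl12 (Entrez 20315, chromosome 6, bases 117168535 to 117181368 of GRCm38) was at 5731 CPM in replicate 1 and 4751 CPM in replicate 2, a mean of 5241 ± 693 CPM (SD, n = 2). It ranked 3rd of all genes by mean CPM. The reporter that was used to sort the cells is named for this gene, so its high rank is not independent of the sort, and how the reporter allele contributes to the count is not given in the sources used here. Kitl, the KIT ligand (Entrez 17311, chromosome 10, bases 100015615 to 100100416), was at 276 and 332 CPM and ranked 687th. Lepr, the leptin receptor (Entrez 16847, chromosome 4, bases 101717137 to 101815352), was at 324 and 315 CPM and ranked 636th. The growth factor gene Igf1 (Entrez 16000, chromosome 10, bases 87858265 to 87937047) was at 1009 and 979 CPM. Col1a2, a chain of type I collagen (Entrez 12843, chromosome 6, bases 4505618 to 4541543), was at 2504 and 2391 CPM. All 5 lay close to the diagonal in the plot of the libraries against each other, and none differed by 1.5-fold or more between replicates.

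The gene with the highest level was Spp1, which encodes osteopontin, an acidic phosphoprotein of bone matrix that marrow stroma also secretes. It was at 10482 CPM in replicate 1 and 11500 CPM in replicate 2. Cytochrome b of the mitochondrial genome (CYTB) came next, at 4385 and 6310 CPM, followed by Cxcl12. Fth1, the iron-storing ferritin heavy chain, was at 3799 and 4179 CPM.

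Several genes of secreted and matrix proteins were among the 30 highest by CPM, and some of them ranked lower per kilobase of transcript. Fstl1, a secreted glycoprotein related to follistatin, was at 4485 and 2734 CPM. Serpine2, a secreted inhibitor of serine proteases, was at 3326 and 3280 CPM. Sparc, or osteonectin, which binds collagen and mineral, was at 2549 and 3571 CPM. These 3 genes show how unequal the spread is: the replicates of Serpine2 nearly coincided, while Fstl1 was higher in replicate 1 and Sparc in replicate 2.

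Apoe, the lipid-carrying apolipoprotein E, was at 3030 and 3066 CPM. Hp, the haemoglobin-binding haptoglobin, was at 2491 and 2869 CPM. Ibsp, bone sialoprotein, was at 2104 and 2981 CPM. Others of the 30 highest were Gpx3, a secreted glutathione peroxidase, Igfbp4, which binds insulin-like growth factors, Mdk, the heparin-binding factor midkine, and Mfap2, a protein of microfibrils. Each of these 4 had a mean between 1842 and 2462 CPM.

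The rest of the 30 were mostly genes that most cells use. They included Actb, Pfn1 and Tpm1 of the actin skeleton, the calmodulin gene Calm2, the elongation factor Eef1a1, the linker histone H1f0, the tetraspanin Cd63, the membrane protein Tmem176b, the G protein subunit Gnas, the mitochondrial COX1 and Id3, an inhibitor of basic helix-loop-helix factors. The nuclear noncoding RNA Malat1 ranked 6th, at 3622 and 3485 CPM. Actb had the widest gap of the 30, at 4302 CPM in replicate 1 and 1968 CPM in replicate 2.

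**Figure D1:**
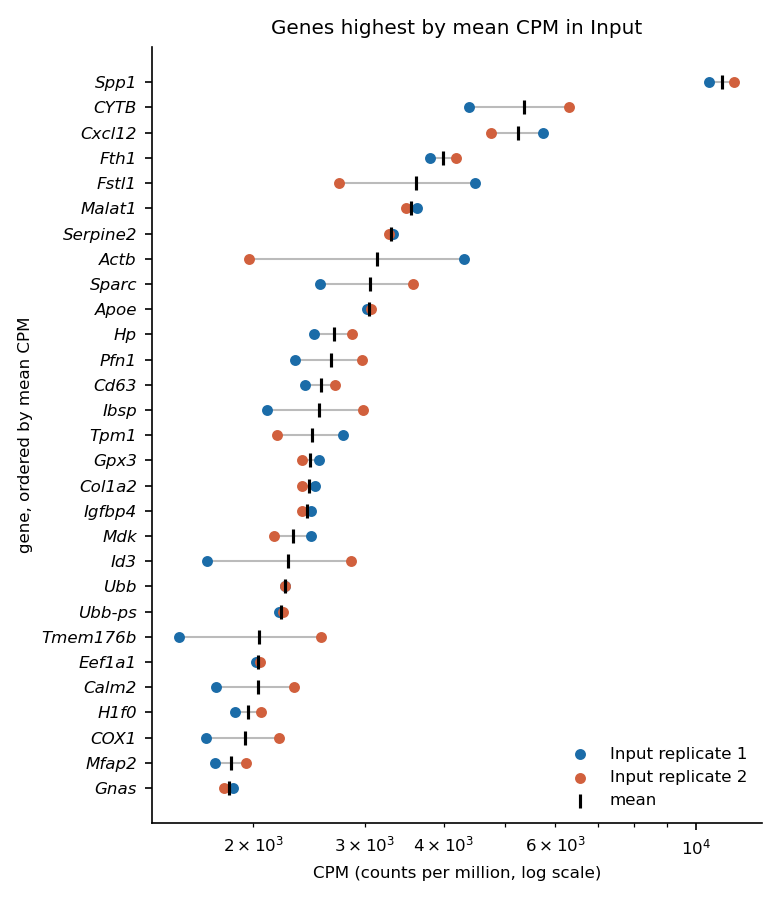
Of the 30 genes highest by mean CPM, 29 are drawn, one per line, with CPM (counts scaled to the library total) on a log axis. Points are the 2 Input libraries and the tick is their mean. Spp1 stands alone, at 10482 and 11500 CPM, and most neighbours overlap.

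The order within the 30 is mostly not resolved by the replicates. Of the 29 neighbouring pairs, 5 had libraries that did not overlap: Spp1 above CYTB, Cxcl12 above Fth1, Malat1 above Serpine2, Apoe above Hp and Ubb above Ubb-ps. The last pair is uncertain, since Ubb, a polyubiquitin gene, and its pseudogene are near-identical copies and their counts of 15989 and 15661 in replicate 1 may share reads. The transcriptome was not dominated by a few genes. The 20 highest held 6.95% of replicate 1 and 7.07% of replicate 2, the 100 highest 17.4% and 18.3%, and the 500 highest 39.0% and 39.7%. There were 85 members at a mean of 1000 CPM or more and 2534 at 100 CPM or more.

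CPM counts fragments, and a long transcript gives more of them per molecule. Ranks and the leading genes of each list are by CPM unless said otherwise, and their order can differ with length. Some genes were therefore also compared as CPM per kilobase of transcript. On that scale Spp1 stayed first at 7293 CPM per kilobase and CYTB second at 4674. Short transcripts came up behind them, with Pfn1 at 3077, Fth1 at 2670 and the ATP synthase inhibitor Atpif1 at 2519 CPM per kilobase. Cxcl12, whose matched transcript has 5627 bases, stood 73rd at 931 CPM per kilobase. The level of Spp1 was therefore above that of Cxcl12 on both scales. Col1a2 stood 240th at 458, and Kitl and Lepr at 53.8 and 57.7 CPM per kilobase, both still above the member median of 27.0. Of the 30 highest by CPM, 16 were also among the 30 highest per kilobase. The median matched transcript had 1795 bases among the 100 highest genes and 2825 among the members.

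The sequences before the start sites of several leading genes are shown because they fall into unlike kinds. A promoter sequence in RefSeq (GRCm38.p6) matched 4959 of the 6119 protein-coding members. In the last 60 bases before the start, on the coding strand of the gene, as printed, the word TATAAA was searched. So were its relatives TTTAAA and, likewise, TTTATA. The GC box, GGGCGG, was searched on both strands, so that its reverse complement CCGCCC counts too, and matches may overlap. Capitals mark these letters. The first 4 are matrix and secreted genes that hold one of the TATA-like words: Spp1 (chr5:104435051-104435110, plus strand), Ibsp (chr5:104299227-104299286, plus), the collagenase gene Mmp13 (chr9:7272454-7272513, plus) and Igfbp4 (chr11:99041184-99041243, plus). The next 3 hold GGGCGG or CCGCCC and none of the TATA-like words: Cxcl12 (chr6:117168475-117168534, plus), Serpine2 (chr1:79858666-79858725, minus) and Fstl1 (chr16:37776995-37777054, plus). Kitl (chr10:100015761-100015820, plus) holds both, and Col1a2 (chr6:4505558-4505617, plus) holds neither in this window. For Kitl and Igfbp4 the start site used lies inside the annotated span of the gene, and so does the printed window.
Spp1: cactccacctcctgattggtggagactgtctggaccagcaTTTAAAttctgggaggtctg
Ibsp: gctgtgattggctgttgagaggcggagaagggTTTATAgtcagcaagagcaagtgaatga
Mmp13: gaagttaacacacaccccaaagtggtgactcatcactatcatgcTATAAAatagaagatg
Igfbp4: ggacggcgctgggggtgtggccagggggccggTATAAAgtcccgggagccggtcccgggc
Cxcl12: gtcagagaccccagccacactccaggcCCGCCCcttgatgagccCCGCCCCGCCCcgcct
Serpine2: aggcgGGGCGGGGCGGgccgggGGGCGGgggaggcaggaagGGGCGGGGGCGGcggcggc
Fstl1: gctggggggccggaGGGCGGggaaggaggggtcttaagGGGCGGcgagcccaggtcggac
Kitl: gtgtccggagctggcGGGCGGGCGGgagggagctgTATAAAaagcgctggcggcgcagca
Col1a2: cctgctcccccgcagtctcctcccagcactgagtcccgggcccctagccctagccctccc

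The TATA-like words were more frequent toward the top of the ranking. They stood before 6.90% of all 27025 genes of the promoter table and before 3.27% of the matched protein-coding members. They stood before 6.4% of the 500 highest of these matched members and before 13 of the 100 highest of them. Those 13 were Spp1, Ibsp, Gpx3, Igfbp4, Gnas, Igfbp5, Mmp13, Zfp36l1, Agt, Fos, Vim, Ndufa7 and Anxa2. In this paragraph the 100 highest are taken among matched protein-coding members only. Ndufa7 and Anxa2 therefore count here, though they ranked 133rd and 136th of all members. GGGCGG or CCGCCC within 250 bases before the start went the other way from 62.4% of members to 51 of the 100 highest, against 33.0% of the whole table. The median number of CG dinucleotides in those 250 bases was 17 in members, 13 in the 100 highest and 6 in the table. A match is a match of letters only, and none of these shares was tested.

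Lists of genes for lineages and functions were then read against the 23.7% of all genes that were members. Of 26 secreted factors of the stem cell niche, 19 were members and 5 were at 0 in both libraries, and the median over all 26 was 148 CPM against 0 CPM over all genes. Besides Spp1, Cxcl12, Mdk and Igf1, the list held Kitl, given above. Absent from both libraries were Thpo, Il6, Lif, Tgfb1 and the NOTCH ligand Dll1. Jag1, another NOTCH ligand, was at 394 CPM in replicate 1 and 95.6 CPM in replicate 2, so its level is poorly fixed by these replicates.

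Surface markers used to isolate stromal progenitors gave 14 members of 23. Vcam1, an adhesion molecule, was at 1052 and 947 CPM, the receptor Pdgfrb at 518 and 661 CPM and the integrin chain Itgb1 at 396 and 303 CPM. Pdgfra was at 89.8 and 150 CPM. Thy1 and Ngfr were at 0 in both libraries, Ly6a (the antigen SCA1) had 0 and 5 counts, and the intermediate filament gene Nes had 108 and 59 counts. Thus some of the classic markers were high in both libraries and others were at or near 0.

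Transcription factors of mesenchyme gave 32 members of 43, with a median of 70.7 CPM over all 43. Id3 was at 1692 and 2856 CPM and Tsc22d1, a leucine zipper protein, at 925 and 976 CPM. Prrx1, a homeobox factor of limb mesenchyme, was at 319 and 273 CPM. Nfia was at 606 CPM in replicate 1 and 66.9 CPM in replicate 2, one of the widest gaps among these factors. Ebf3 and Foxc1, factors known to maintain CXCL12-rich stroma, were at 281 and 243 CPM and at 144 and 206 CPM. Both were named after their values had been seen.

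Bone genes were well represented but not completely. Of 24 osteogenic genes, 17 were members, with a median of 120 CPM over the 24. Spp1, Sparc, Ibsp and Col1a2 led the list, and Col1a1 was at 912 and 1471 CPM. Runx2, the factor that starts the osteoblast program, was at 167 and 188 CPM, and Sp7, the factor that acts after it, was at 34.9 and 23.7 CPM. Alpl, the alkaline phosphatase of mineralising cells, was at 131 and 115 CPM. Bglap2, an osteocalcin gene with near-identical neighbours, had 722 and 519 counts. Ifitm5, a membrane protein of mineralising osteoblasts, was at 76.9 CPM in replicate 1 and 699 CPM in replicate 2. Of osteocyte genes, Sost and Mepe were at 0 in both and Dmp1 had 28 and 155 counts.

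Genes of cartilage were nearly missing, at 2 members of 23 and 16 at 0 in both libraries. The 2 members were Col11a1, at 123 and 197 CPM, and Sox9, the master factor of cartilage, at 22.6 and 20.3 CPM. Acan, the main cartilage proteoglycan, was at 0 in both. Col2a1, the type II collagen, had 1 count in replicate 1 and 214 in replicate 2.

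Adipogenic genes gave 13 members of 24, and the list divided sharply. Beside Apoe, Lpl, which encodes lipoprotein lipase, was at 1930 and 1628 CPM. Adipoq, which encodes the hormone adiponectin, was at 1226 and 1173 CPM. Cebpd, a factor of early adipogenesis, was at 342 and 458 CPM. Pparg, the master factor of fat cells, was at 133 and 144 CPM. At 0 in both libraries were 7 genes, among them the lipid droplet genes Plin1 and Cidec, the fatty acid synthase Fasn and adipsin (Cfd). Per kilobase, Adipoq reached 929 CPM, close to the 931 of Cxcl12.

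Fibroblast, tendon and periosteal genes gave 9 members of 22, led by Tnc at 1469 and 1471 CPM, Lgals1 at 885 and 1083 CPM and Fap at 239 and 576 CPM. Tnc encodes tenascin C, a matrix glycoprotein. Per kilobase of transcript the order differed, with Tnc at 207 CPM and Lgals1 at 1230 CPM. The tendon genes Scx and Tnmd and the fibroblast gene Dpt were at 0 in both libraries.

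**Figure D2:**
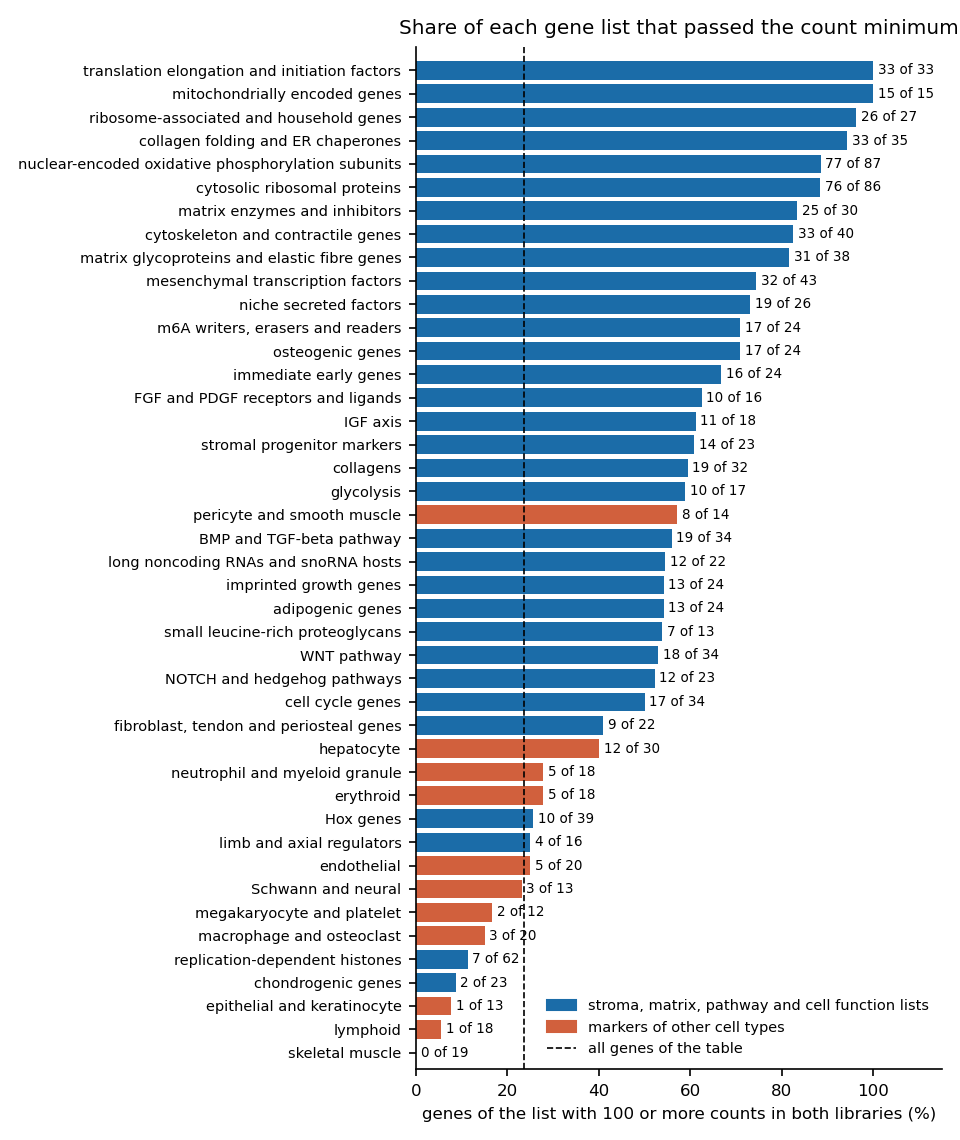
Share of each gene list, in percent, that had 100 or more counts in both Input libraries, with the number of members and of list genes found beside each bar. The dashed line is the 23.7% over all genes of the table. Chondrogenic genes lie left of it and osteogenic and adipogenic genes right of it.

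Matrix production was broad. Of 32 collagen genes 19 were members. After both chains of type I came the basement membrane chains Col4a2, at 607 and 468 CPM, and Col4a1, at 605 and 448 CPM. Matrix glycoproteins gave 31 members of 38, led by Sparc, Mfap2, Tnc and fibronectin (Fn1), which was at 598 and 937 CPM. Small leucine-rich proteoglycans, which bind collagen fibrils, gave 7 of 13. Biglycan (Bgn) was at 847 and 916 CPM, decorin (Dcn) at 500 and 492 CPM and lumican (Lum) at 308 and 344 CPM.

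Enzymes that cut, trim or protect matrix gave 25 members of 30. Mmp13, the collagenase that degrades cartilage and bone collagen, was at 1696 and 1884 CPM and ranked 33rd. Pcolce, which speeds the trimming of procollagen, was at 1033 and 808 CPM, and Bmp1, the protease that does the trimming, was at 617 and 573 CPM. The machinery of collagen folding and of the endoplasmic reticulum gave 33 members of 35, led by the chaperones Hspa5, at 1362 and 1318 CPM, Pdia6 and Hsp90b1. Serpinh1, the collagen chaperone HSP47, was at 776 and 520 CPM.

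Growth factors of the insulin-like family were prominent. Of 18 genes of this axis 11 were members, with a median of 145 CPM over the 18. Igf2 was at 1118 and 1064 CPM, beside the 1009 and 979 CPM of Igf1. Per kilobase Igf2 was at 231 CPM and Igf1 at 141 CPM. The binding proteins Igfbp4, at 2464 and 2392 CPM, and Igfbp5, at 2153 and 1470 CPM, led the list by CPM. Imprinted genes can be expressed mainly from 1 parental copy, which these counts do not show. Of 24 imprinted growth genes 13 were members. The noncoding RNA H19 was at 1354 and 2037 CPM, the cell cycle inhibitor Cdkn1c at 1744 and 1323 CPM and Gnas at 1855 and 1801 CPM. Dlk1, an imprinted inhibitor of adipogenesis, had 2 counts in each library.

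Signalling pathways were present in part. BMP and TGF-beta genes gave 19 members of 34. After Fstl1 and Id3, the ligand Bmp4 was at 299 and 280 CPM and the co-receptor Tgfbr3 at 346 and 201 CPM. WNT genes gave 18 of 34, led by the transcription factor Tcf7l2, at 1527 and 1461 CPM, the secreted inhibitor Sfrp4, at 646 and 481 CPM, and the receptor Lrp4, at 784 and 202 CPM. Lef1 and Axin2, common readouts of WNT signalling, were at 0 in both libraries. NOTCH and hedgehog genes gave 12 of 23, and Notch2 was at 674 CPM in replicate 1 and 86.8 CPM in replicate 2. Growth factor receptors and ligands of the FGF and PDGF kind gave 10 of 16, led by Pdgfrb, Fgfr2 at 478 and 367 CPM and the ligand Fgf7 at 164 and 158 CPM.

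Genes that record position along the body were members about as often as genes at large. Of 39 Hox genes 10 were members and 22 were at 0 in both libraries, a share of 25.6% beside the 23.7% of all genes. The highest were Hoxa10, at 130 and 122 CPM, Hoxb2, at 86.9 and 108 CPM, Hoxc9, at 93.0 and 47.1 CPM, and Hoxa5, at 50.0 and 36.8 CPM. All Hox members came from the groups below 11, and Hoxa13, Hoxd11 and Hoxd13 were at 0. Of 16 other limb and axial regulators 4, or 25%, were members, among them Shox2, Hand2 and Tbx18.

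Proliferation genes gave 17 members of 34, and inhibitors led them. Cdkn1c was followed by Cdkn1a, the inhibitor p21, at 1206 and 1825 CPM. The cyclin gene Ccnd2 was at 599 and 800 CPM and Cdk4 at 500 and 371 CPM. The mitotic gene Top2a was at 82.7 and 100 CPM, and Mki67, a common marker of cycling cells, was at 0 in both. Immediate early genes, which respond within minutes to stimuli that include tissue dissociation, gave 16 of 24. Fos was at 1055 and 1010 CPM, Egr1 at 762 and 624 CPM and Ccn1 at 432 and 702 CPM. When these transcripts were made cannot be read from these libraries.

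Genes that write, erase and read m6A, the mark the study was about, gave 17 members of 24, with none at 0 in both. Hnrnpa2b1 and Hnrnpc, RNA-binding proteins linked to the mark, were at 1148 and 838 CPM and at 386 and 397 CPM. Zc3h13, a part of the writer complex, was at 223 and 185 CPM. Wtap, another part of it, was at 601 CPM in replicate 1 and 66.2 CPM in replicate 2, a 9.08-fold gap. The whole list held 0.368% of the counts of replicate 1 and 0.224% of those of replicate 2. By library total, 5 of its 17 members were 2-fold or more higher in replicate 1 and 1 in replicate 2. Over all members these shares were 13.4% and 8.18%. The levels of this list are thus loosely fixed by these replicates.

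Lists of general cell machinery ranged widely in the share of members. All 33 translation factors and all 15 mitochondrially encoded genes were members. So were 76 of 86 cytosolic ribosomal protein genes and 77 of 87 nuclear-encoded subunits of oxidative phosphorylation. Rps3 was at 1317 and 1458 CPM and the cytochrome oxidase subunit Cox4i1 at 1787 and 1651 CPM. Cytoskeletal genes gave 33 of 40 and glycolysis 10 of 17, where Aldoa was at 790 and 880 CPM. Replication-dependent histones, most of whose transcripts lack a poly(A) tail, gave 7 of 62. The long noncoding RNAs and hosts of small nucleolar RNAs gave 12 of 22, and Gas5 was at 417 and 590 CPM.

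Markers of cells that the sort should leave out were counted in the same way. In a bulk library fewer cells of a type and less RNA per cell cannot be told apart. Of the sorted-out antigens, Ptprc, which encodes CD45, was at 0 in both libraries, and Pecam1, which encodes CD31, had 92 and 69 counts.

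Some blood lineage lists held clearly detected genes beside defining genes at 0. Erythroid genes gave 5 members of 18, or 27.8% beside the 23.7% of all genes, and together 0.0685% and 0.0909% of the counts. The globins Hba-a1, Hba-a2 and Hbb-bs were between 136 and 315 CPM, with reads of both alpha globin copies not separable, while Gata1, an erythroid transcription factor, was at 0 in both. Neutrophil genes gave 5 of 18, also 27.8%, led by Mmp9 at 670 and 758 CPM. Mpo and Elane, which define granulocyte precursors, were at 0 in both, and S100a8 was at 29.9 and 136 CPM. Macrophage and osteoclast genes gave 3 of 20, which were Mmp9 again, Fcer1g and Csf1r, with Adgre1 and Acp5 at 0. The lymphoid list had 1 member of 18, Ebf1, which is also on the mesenchymal list, and Cd3e and Rag1 were at 0. Megakaryocyte genes gave 2 of 12, Pf4 and Ppbp.

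Endothelial genes gave 5 members of 20, or 25%, near the 23.7% of all genes. Stab2, a scavenger receptor of sinusoids, was at 237 and 128 CPM, Cldn5 at 204 and 123 CPM and Eng, which stroma also uses, at 113 and 157 CPM. Cdh5 and Vwf were at 0 in both libraries. Pericyte and smooth muscle genes gave 8 of 14, led by Pdgfrb and Mylk, with Acta2 at 45.8 and 73.4 CPM and with Myh11, Rgs5 and Cnn1 at 0. Schwann and neural genes gave 3 of 13, or 23.1%, also near the share of all genes, with Sox10 at 0. Epithelial genes gave 1 of 13, Krt10, with Epcam, Krt5 and Krt14 at 0.

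Transcripts of liver and of skeletal muscle set replicate 2 apart. The hepatocyte list had 12 members of 30, and held 0.467% of replicate 1 and 0.843% of replicate 2, a 1.80-fold gap. Hp and Trf, the iron carrier transferrin, were high in both libraries. Without these 2, chosen after their values were seen, 10 of 28 were members and the list held 0.0575% of replicate 1 and 0.421% of replicate 2, a 7.31-fold gap. Alb, serum albumin, had 114 counts in replicate 1 and 1655 in replicate 2. Apoa2 had 439 and 9708 counts, Apoa1 195 and 3938, and Fabp1, the liver fatty acid-binding protein, 31 and 7158. Muscle genes had no member of 19 and held 0.00372% of replicate 1 and 0.0838% of replicate 2, a 22.5-fold gap. Acta1, the actin of skeletal muscle, had 88 and 1608 counts, the troponin Tnnt1 59 and 1445, and Myod1 and Pax7 none in either. From replicate 2 alone, 21 hepatocyte genes and 9 muscle genes would have passed the minimum. What these transcripts add to other values of replicate 2 was not tested.

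**Figure D3:**
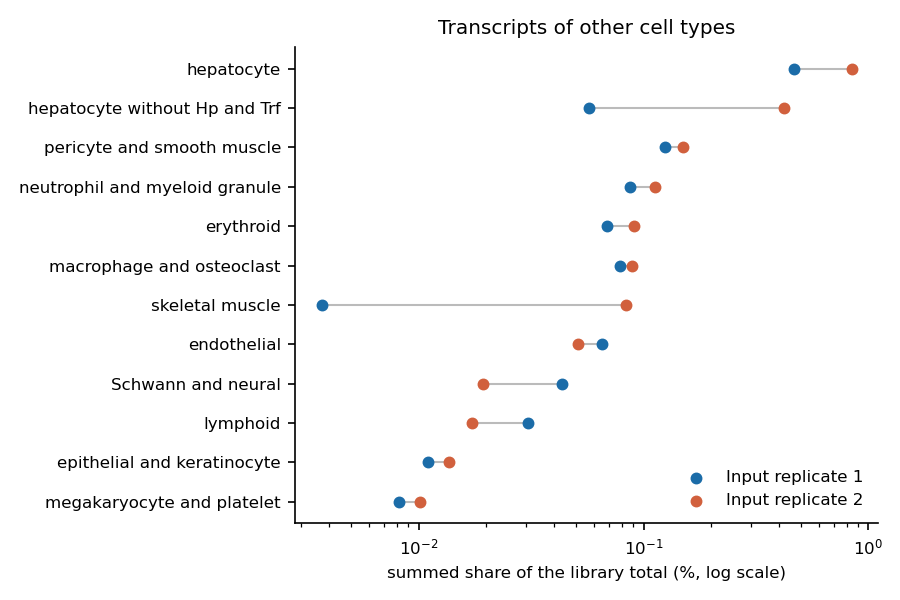
Summed share of the library total, in percent on a log axis, of each list of markers of other cell types, with 1 point for each Input library. The hepatocyte list without Hp and Trf and the muscle list are the widest apart, and both are higher in replicate 2.

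Some transcripts specific to 1 sex were present. Xist, made from the inactive X chromosome in females, was at 300 and 222 CPM, and Eif2s3y, a gene of the Y chromosome, at 27.4 and 24.3 CPM. Ddx3y, also on the Y chromosome, had 10 and 15 counts, and Uty and Kdm5d had none. Transcripts of both kinds were thus counted in both libraries, but those of the Y chromosome rest mainly on Eif2s3y. Whether the libraries held RNA of both sexes was not tested. This short list was added after the data had been seen.

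The replicates followed each other across genes and differed widely gene by gene. Across the 6429 members the log2 CPM values of both libraries had a Pearson correlation of 0.852, where genes are not independent and share the depth of their library. The median member differed 1.55-fold between libraries, and 2976 members, or 46.3%, lay within 1.5-fold. Members 2-fold or more apart numbered 1387, of which 526 (8.18% of members) were higher in replicate 2 and 861 (13.4%) in replicate 1. This split depends on the scaling. By library total the median log2 difference of replicate 2 over replicate 1 was -0.36, and with TMM scaling, which centres typical genes, it was -0.0031 and 906 members were higher in replicate 2 against 236 in replicate 1. A direction between these libraries for a gene near 2-fold is therefore a matter of scaling.

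**Figure D4:**
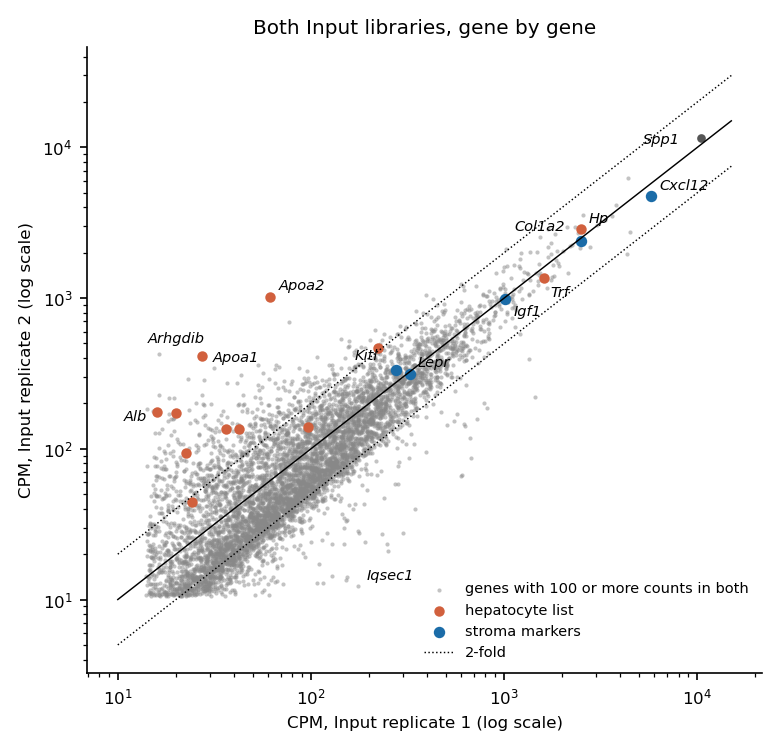
CPM of each member in Input replicate 1 against replicate 2, both axes log. The solid line is equality and the dotted lines are 2-fold. Stroma markers lie on the diagonal, and most hepatocyte genes other than Hp and Trf lie above it.

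The gap between replicates was wider among low genes. With members split into 5 equal bins by mean CPM, the median fold between replicates was 1.72 in the lowest bin and 1.28 in the highest. The median log2 difference of replicate 2 over replicate 1 was -0.72 in the lowest bin and -0.034 in the highest. The fold in the lowest bin thus holds a shared shift toward replicate 1 as well as spread. The direction moved with mean CPM. In the lowest bin 26.4% were 2-fold or more higher in replicate 1 and 3.03% in replicate 2. In the highest bin these shares were 3.34% and 5.75%. Membership itself asks for 14.0 CPM in replicate 1 and 10.5 CPM in replicate 2, so it admits genes higher in replicate 1 at lower means. The bins use scaling by library total. What the minimum and the scaling add to the direction was not tested. Transcript length moved with the direction too. The median log2 difference was 0.02 in the bin of shortest transcripts and -0.51 in that of the longest, with a Spearman correlation of -0.19 across the 6158 members that had a length. The part of length in the difference was not tested.

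**Figure D5:**
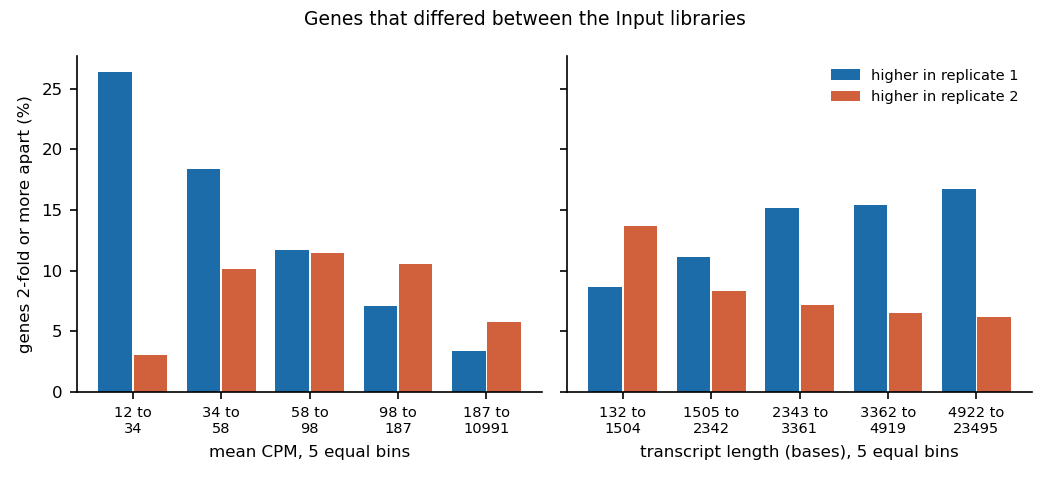
Percent of members 2-fold or more apart between the Input libraries, in 5 equal bins by mean CPM (left) and by transcript length (right), scaled by library total. Genes higher in replicate 1 outnumber the others in the lowest CPM bin and in the bin of longest transcripts.

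The largest gaps among members were far beyond the typical spread. Arhgdib, a regulator of small GTPases that is abundant in blood cells, had 116 counts in replicate 1 and 4062 in replicate 2, a 26.3-fold difference in CPM. It was followed by Apoa2 at 16.6-fold and Apoa1 at 15.2-fold, both given above, Tyms, the thymidylate synthase, at 13.8-fold, and Prmt2, an arginine methyltransferase, at 13.0-fold. In the other direction Iqsec1, an activator of ARF proteins, had 1246 and 117 counts, 14.2-fold apart. Sirt6, a deacetylase, was 11.9-fold apart, Cercam 11.3-fold, the gene with Entrez number 100861633 10.9-fold, and Ncoa3, a coactivator of nuclear receptors, 10.9-fold.

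Some genes were seen in 1 library alone. There were 40 genes with 1000 or more counts in replicate 2 and 10 or fewer in replicate 1, and 0 genes the other way. Among the 40 were the liver genes Fgg, with 0 and 1668 counts, and Cyp2e1, with 0 and 1459, the muscle gene Mylpf, with 0 and 1372, and complement C3, with 10 and 3129. Genes that most cells use were among them too, such as Fen1, a DNA repair nuclease, with 1 and 1020 counts, and Ftsj1, an RNA methyltransferase, with 2 and 2148.

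Membership near the minimum is equally loose. Just inside were Hs6st1 (100 and 102 counts), Nit2 (106 and 100) and Sun1 (118 and 100). Just outside were Adgrg3 (99 and 801 counts), Cdc6 (408 and 99) and the gene with Entrez number 100504117 (99 and 1246). Genes were ordered by the smaller of both counts and then by mean CPM. Among ties this took the lowest means inside and the highest outside, so the other counts of these genes follow from the order. In all, 492 genes reached the minimum in replicate 1 alone and 1207 in replicate 2 alone.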

How the data were processed

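The authors deposited 1 table of raw read counts per gene with Entrez numbers. Per the submitters' processing notes, Picard, featureCounts, edgeR 3.38.1 and build mm10 were used, with no role or order given. For the aligner and the annotation the sources used here give no name. Per the labels' protocols libraries were made by Smart-seq2, which amplifies RNA without marking strand, so overlapping and antisense genes cannot be told apart. Both Input columns were used and 4 pull-down columns were not. Counts were divided by library total to CPM (Python 3.11.15, pandas 2.3.3). No test was made. TMM scaling (edgeR 4.0.16, R 4.3.3), other minimums and each library alone were alternatives. Intervals cover counting error only. Symbols matched 25275 of 27179 gene rows in RefSeq GRCm38.p6, and 6361 of 6429 members. Transcript lengths came from GENCODE M21. Genes with near-identical copies are uncertain. The script that counts genes apart was tested on simulated data.

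The members and all 44 lists were chosen with earlier results of these data known. Mitochondrial genes were taken by chromosome, a change made after the symbols were seen. Named were the 5 markers, the 30 highest genes, up to 4 members per list and genes whose absence limits its name, up to 5 genes and defining genes at 0 per other cell type, the 5 largest folds each way and the 3 genes on each side of the minimum. Some genes that this rule names are not reported here. Further names were chosen after their values were seen.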

Additional observations from a re-analysis of the deposited data

How the results depend on the processing

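The number of members was 5154 with a minimum of 200 counts, 7350 with a minimum of 50, 6655 with a minimum of 10 CPM, 7636 in replicate 2 alone and 6921 in replicate 1 alone, all within 1.5 times the 6429 reported. The share of counts in the 20 highest genes was 7.01% over both libraries and 7.01% to 7.20% when each library was left out in turn. Of the 30 highest genes 16 were kept per kilobase of transcript. Members 2-fold or more apart fell from 1387 to 820 with a minimum of 200 counts, where fewer genes were counted, and were 1142 with TMM scaling. The summed share of muscle genes was 0.0437% over both libraries, 0.0838% without replicate 1 and 0.00372% without replicate 2, and that of Schwann and neural genes 0.0313% over both and 0.0193% without replicate 1. Counts of members in single lists moved by over 1.5 times in 15 cases. Without replicate 1 the hepatocyte list had 21 members in place of 12 and the muscle list 9 in place of 0. With a minimum of 200 counts the endothelial list had 3 in place of 5, the limb and axial list 2 in place of 4 and the histone list 2 in place of 7. The chondrogenic list, with 2 of 23 as reported, had 4 with a minimum of 50 counts, 1 with a minimum of 200 and 4 without replicate 2. No paired analysis was possible because the values come from 1 group and from no test. Depth limits genes near 100 counts most.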

Other observations

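Several genes that most cells use were low in both libraries. Gapdh, a glycolytic enzyme, had 243 and 197 counts, Ppia, a cyclophilin, 130 and 198, and Tpt1 223 and 490. Pgk1, another glycolytic enzyme, had 68 and 61 counts, and Tmsb4x, the actin-binding thymosin, 1 and 3. Rpl39, a ribosomal protein, had 13 and 16 counts. Over the same libraries the pseudogene Oaz1-ps had 9481 and 13752 counts, beside 2181 and 3620 of its parent Oaz1, and Ubb-ps had 15661 and 21147, beside 15989 and 21274 of Ubb. How reads that match several copies were counted is not given in the sources used here, so these levels are uncertain, and the part of the counting in them was not tested.

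A few short noncoding RNAs were members of these poly(A)-selected libraries. Mir682 had 2949 and 2981 counts, the 7SK RNA Rn7sk 802 and 569, and Rpph1, the RNA of RNase P, 256 and 367. Agt, which encodes angiotensinogen, ranked 48th at 1512 and 1417 CPM. All of these genes were chosen after their values were seen.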
